A study of Mus musculus with 47 samples.

Results

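Gene expression was measured in the mammary stem cell (MSC) fraction of ovariectomized FVB mice, a cell sort that holds the basal cells of the mammary epithelium, after 14 days of estradiol plus progesterone (EP) or of sham treatment. The 8 libraries were taken by their labels, which give the MSC fraction and the treatment, from 47 libraries of the series. There were 4 EP libraries (mice 306, 311, 322 and 327) and 4 sham libraries (mice 305, 310, 326 and 334), each from the polyadenylated RNA of 1 mouse. All 8 mice were ovariectomized, so the sham mice lacked the ovarian source of both hormones. The labels give no age, and no transgene or other allele.

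Progesterone acts in the mammary gland through its receptor, which is found mainly in mature luminal cells. Those cells signal to their neighbours through secreted factors such as RANK ligand (Tnfsf11), Wnt4 and amphiregulin (Areg), and basal cells are among the cells that respond. Basal cells are the outer layer of the ducts, carry keratins 5 and 14 and smooth muscle proteins, and include cells that can regrow a gland after transplantation.

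The values are FPKM (fragments per kilobase of transcript, scaled to the size of the library) that had been adjusted further, gene by gene, within separate sets of libraries. Sham mouse 305 and EP mice 306 and 322 lie in set 2, with all 16 libraries of luminal progenitors (LP). Sham mice 310, 326 and 334 and EP mice 311 and 327 lie in set 3. Gene means had been made equal between sets, and low values raised or set to 0. A level is therefore read here only against libraries of its own set. Where an offset was added, a fold change is smaller than it would be without it. Where values were set to 0, a log2 difference can be larger instead. Summed values of the 8 libraries ran from 267007 to 356258 and genes with a value above 1 from 10393 to 11119. By two-sided exact permutation tests of 4 EP against 4 sham libraries, neither passed a p of 0.05 (p = 0.686 and 0.6, adjusted p = 0.686 for both; the smallest p this design allows is 0.0286).

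Within set 2 the basal label could be checked against LP cells. Keratin 5 (Krt5) ran from 32.2 to 560.3 in the 6 MSC libraries of the set and from 8.44 to 10.7 in the 16 LP libraries. Keratin 14 (Krt14) and smooth muscle actin (Acta2) were likewise above every LP library in every MSC library, while luminal keratin 8 (Krt8) overlapped (313 to 919 against 791 to 3450) and keratin 18 (Krt18) was below every LP library, at 383 to 956 against 1112 to 4887, as were Krt19 and Epcam. The other defining basal gene, Trp63, overlapped between the fractions (2.76 to 28.4 against 0.673 to 5.07). No luminal library lies in set 3, so its 5 libraries could not be checked in this way.

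The libraries differed strongly from mouse to mouse in the level of markers of other cells. Summed over 20 endothelial genes, the level was 4962 in sham mouse 305 and 11347 and 944 in EP mice 306 and 322. In set 3 it was 4291, 99.1 and 5099 in sham mice 310, 326 and 334, and 2305 and 0 in EP mice 311 and 327. All 20 endothelial genes, Pecam1, Cdh5 and Kdr among them, were listed at 0 in EP mouse 327, and 10 of 20 in sham mouse 326. Of 22 basal genes, 7 were listed at 0 in each of sham mice 310 and 334, yet the lowest summed basal level of each set was in an EP mouse. That level was 3695 in sham mouse 305 and 2135 and 5956 in EP mice 306 and 322. In set 3 it was 1183, 3648 and 2673 in sham mice 310, 326 and 334, and 633 and 2477 in EP mice 311 and 327. A sum weighs the most abundant genes. The mean log2 value of tested basal genes, centred within the set, ordered set 3 otherwise. It was -0.47, 2.05 and 0.14 in sham mice 310, 326 and 334, and 0.53 and 2.02 in EP mice 311 and 327. In set 2 it was -0.20 in sham mouse 305 and -1.36 and 0.81 in EP mice 306 and 322. The first principal component, with 51.9% of the variance over all 16 MSC libraries, had EP mouse 327, sham mouse 326 and EP mouse 322 at one end and EP mouse 306 and sham mouse 310 near the other. A low and a high endothelial level occurred in both treatment groups. In such bulk samples fewer cells of a type and less RNA per cell cannot be told apart.

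**Figure D1:**
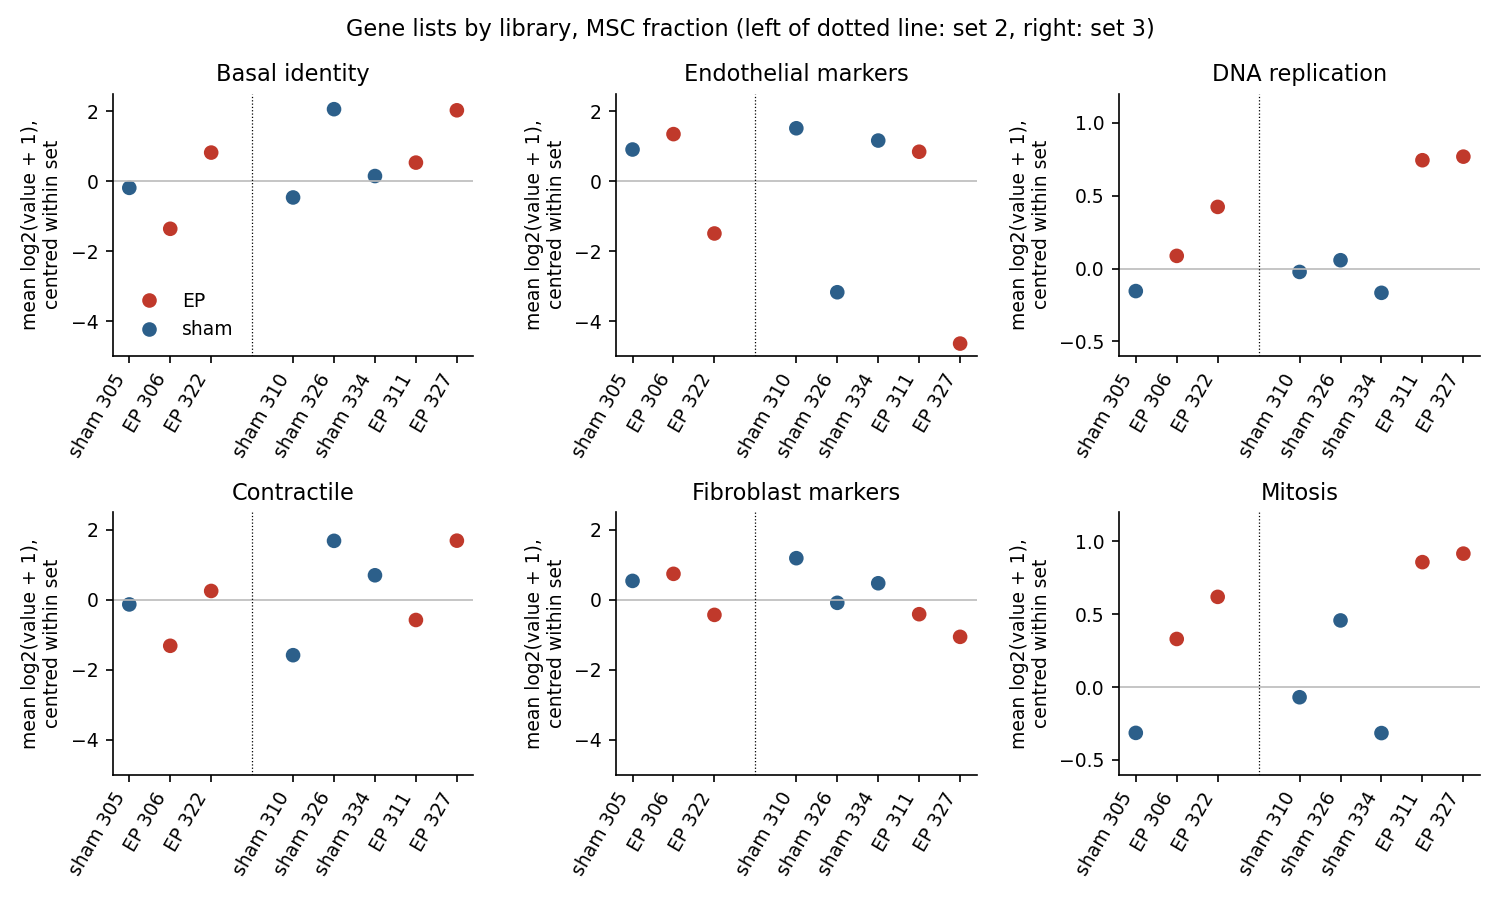
Mean log2(value + 1) of 6 gene lists in each of the 8 libraries, centred on the MSC libraries of the same set (y axis), by mouse (x axis; red EP, blue sham; set 2 left and set 3 right of the dotted line). Basal, contractile, endothelial and fibroblast lists vary between mice within both treatments, while the EP libraries lie above the sham libraries of their set in the DNA replication and mitosis lists.

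EP was compared with sham in 1 model over 12193 genes, fitted to all 16 MSC libraries with the set as a term. These included mice given EP with a progesterone receptor antagonist (telapristone acetate or RU486), which helped to estimate the spread between mice. Those libraries also helped to estimate the set term. EP and sham were unevenly divided over the sets, so a difference from this model can lie outside both within-set differences. No gene passed an adjusted p of 0.05 in either direction (limma, Benjamini-Hochberg adjustment; 0% higher and 0% lower). The smallest adjusted p was 0.422. At an unadjusted p under 0.05 (written p under 0.05 from here) there were 648 genes, 315 higher (2.58% of those tested) and 333 lower (2.73%). Counts of list members at that level below are to be read beside these 2 shares. The median log2 difference over all genes was -0.03. The only fit with many calls gave each library its own weight. It called 515 genes higher (4.22%) and 578 lower (4.74%), but put weights of 7.01 on EP mouse 311 and 5.19 on sham mouse 310, and without sham mouse 310 it called 0 in either direction. Without EP mouse 311 it called 2111 and 2223. The genes described below therefore carry values and no call, and those called out for a small unadjusted p were picked after their values were seen.

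The pattern that recurred most from mouse to mouse lay in the cell cycle. Of 73 genes of DNA replication and mitosis, 61 were tested, and all 61 had a log2 difference above 0, from 0.06 to 1.41 with a median of 0.63. Over all genes tested, 45.4% were above 0. At an unadjusted p under 0.05, 38 of 61 were higher and 0 lower, beside the 2.58% and 2.73% of all genes. In 46 of 61 every EP library lay above every sham library of its set in both sets, which held for 4.04% of all genes tested, and in 0 of 61 it was the reverse (3.11%). These genes share cells and are controlled together, so they are not independent observations. The other 12 genes, Mki67 among them, were too low for the filter. Counted without a filter, all 73 were above 0 (52.6% of 21757 genes), with a median of 0.59, and in 51 the EP libraries lay above in both sets (2.97%) and in 0 below (2.06%).

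Single libraries moved how many of these genes passed the unadjusted threshold. The count of 38 became 24 without sham mouse 305, 25 without EP mouse 311 and 22 without EP mouse 327. It was 30 without both sham mouse 326 and EP mouse 327, the libraries lowest in endothelial genes, where the median was 0.53 for DNA replication and 0.90 for mitosis. With a stricter filter (a value of 5 or more in 4 libraries) it was 12, and without the set term 19. With a covariate for endothelial minus basal markers it was 39 (3.17% of all genes were higher and 5.24% lower in that fit), with a median of 0.61 against 0.63 without it.

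**Figure D2:**
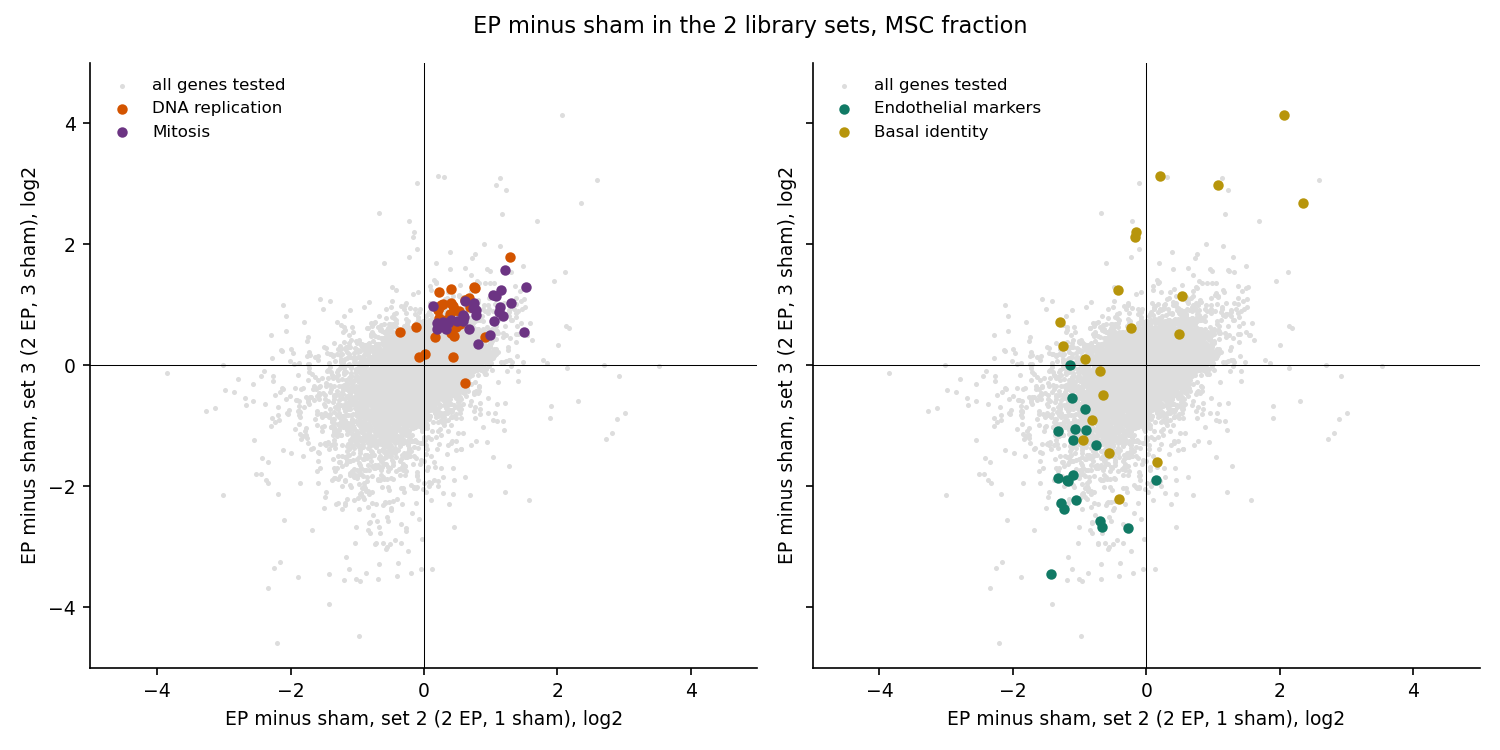
EP minus sham difference of mean log2(value + 1) in set 2 (x axis, 2 EP against 1 sham library) and in set 3 (y axis, 2 EP against 3 sham libraries) for each gene. Of the 61 cell cycle genes (left), 57 lie above 0 in both sets, and the 20 endothelial genes (right) lie mostly below 0 in both sets.

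Among genes of DNA synthesis, 31 of 36 were tested, 18 were higher and 0 lower at an unadjusted p under 0.05, and the median was 0.59. Thymidylate synthase (Tyms) makes the thymidine nucleotide for DNA. Its values were 2.67 in the sham library against 4.11 and 5.23 in the EP libraries of set 2, and 2.69, 2.38 and 2.54 in sham against 7.13 and 5.88 in EP in set 3. The EP libraries did not overlap the sham libraries in either set, and the log2 difference was 0.93 ± 0.19 (SE; adjusted p = 0.422, limma). For Mcm5, a subunit of the helicase that opens DNA at replication origins, the values were 4.04 under sham and 5.39 and 10.1 under EP in set 2, then 7.62, 12.4 and 5.56 under sham and 20.3 and 22.5 under EP in set 3. The difference was 1.03 ± 0.25 (adjusted p = 0.569, limma), with no overlap in either set. Ribonucleotide reductase subunit M2 (Rrm2), which supplies deoxynucleotides, had the highest difference of all 61, 1.41 ± 0.43 (adjusted p = 0.826, limma). It read 2.598 in the sham library against 6.595 and 9.29 in the EP libraries of set 2, and 2.48, 4.47 and 5.63 in sham against 16.6 and 16.3 in EP in set 3. The DNA primase subunit Prim1 differed by 0.73 ± 0.20, the thymidine kinase Tk1 by 0.997 ± 0.28, Mcm6 by 0.78 ± 0.24 and Mcm2 by 0.70 ± 0.25. Not all members differed so: the sliding clamp Pcna was at 0.058 ± 0.34, the licensing factor Cdt1 at 0.0603 ± 0.29, the maintenance methyltransferase Dnmt1 at 0.056 ± 0.18, and the polymerase subunit Pold1 at 0.15 ± 0.28. Pcna read 67.2 in the sham library against 121 and 89.3 in the EP libraries of set 2, and 84.03, 40.04 and 94.4 in sham against 80.8 and 38.1 in EP in set 3, so its groups overlapped and its set 3 difference was below 0.

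Among genes of mitosis, 30 of 37 were tested, 20 were higher and 0 lower at an unadjusted p under 0.05, and the median was 0.77. Cyclin A2 (Ccna2), which drives S phase and entry into mitosis, had 1.301 under sham and 2.98 and 5.56 under EP in set 2, then 2.22, 3.26 and 2.19 under sham and 6.97 and 7.82 under EP in set 3. Its difference was 1.17 ± 0.24 (adjusted p = 0.422, limma), with no overlap in either set. Topoisomerase 2-alpha (Top2a) untangles sister chromosomes. It had 0.984 in the sham library against 2.94 and 3.18 in the EP libraries of set 2, and 1.798, 2.12 and 1.597 in sham against 5.53 and 5.11 in EP in set 3, a difference of 1.07 ± 0.28 (adjusted p = 0.592, limma) and again no overlap. The mitotic kinase Cdk1 differed by 0.86 ± 0.26 and its partner cyclin B1 (Ccnb1) by 1.32 ± 0.46. Ccnb1 showed how far sham mice varied, at 0.745 under sham and 1.85 and 4.802 under EP in set 2, then 1.85, 4.38 and 0.1399 under sham and 5.79 and 7.79 under EP in set 3. The kinetochore protein Ndc80 differed by 0.88 ± 0.22, the centromeric histone Cenpa by 1.08 ± 0.30 and the cytokinesis regulator Racgap1 by 0.95 ± 0.24. Mki67, the gene of the Ki-67 antigen, stayed under a value of 1 in all 8 libraries (0.00361 to 0.891) and was not tested.

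**Figure D3:**
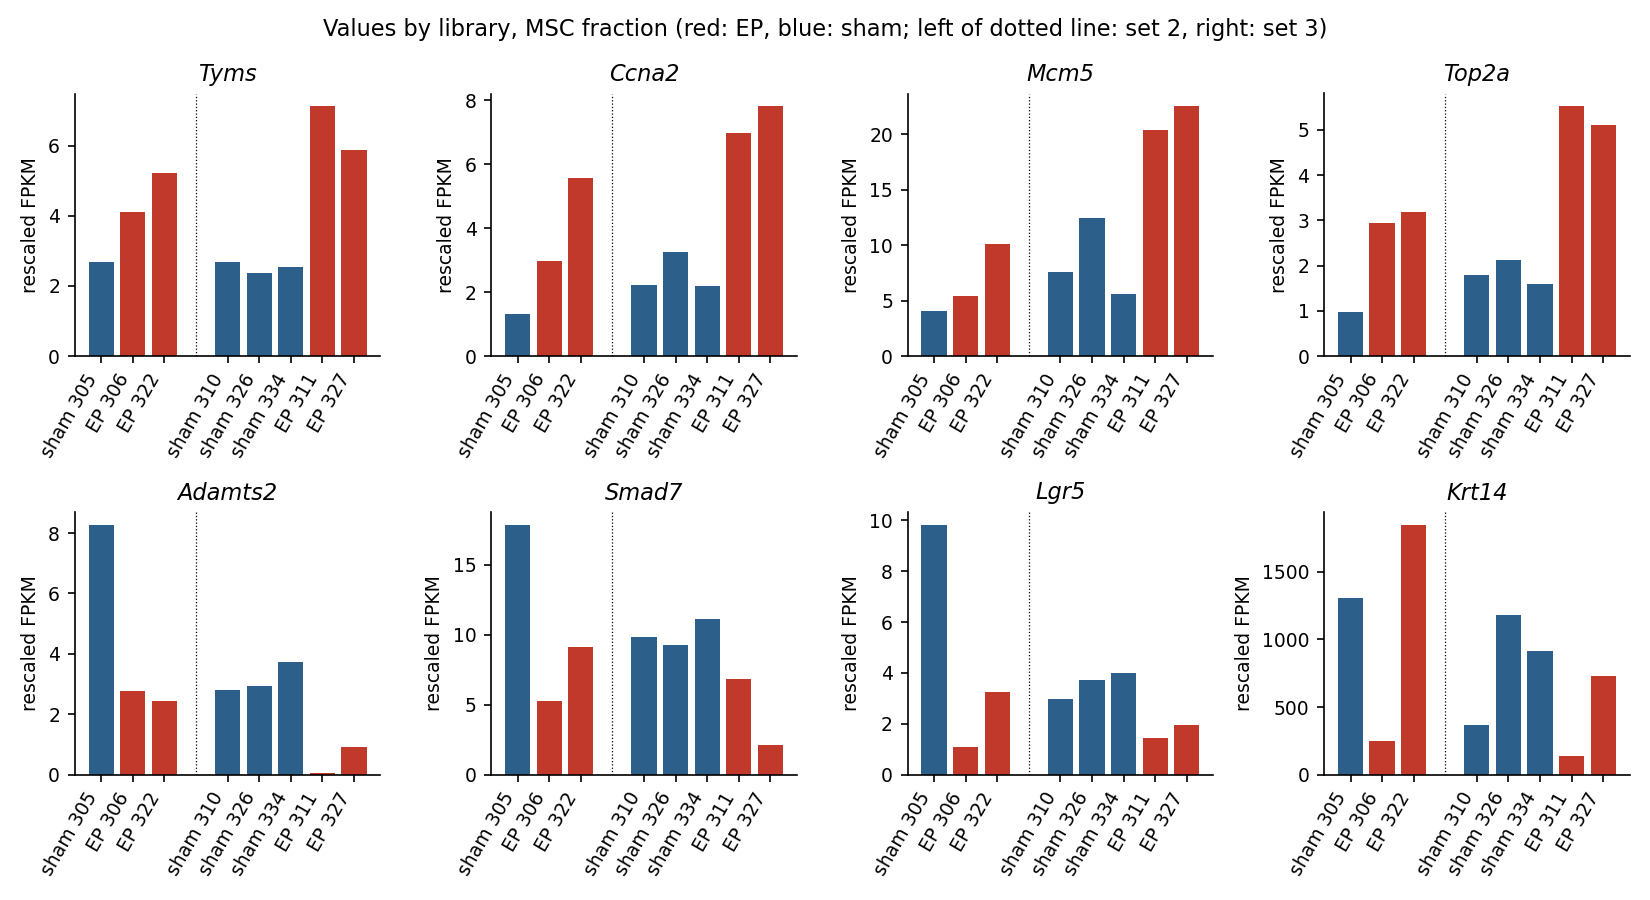
Rescaled FPKM of 8 genes in each library (y axis, one scale per gene; red EP, blue sham; set 2 left and set 3 right of the dotted line). Tyms, Ccna2, Mcm5 and Top2a are higher in every EP library than in the sham libraries of the set, Adamts2, Smad7 and Lgr5 lower, and Krt14 overlaps between the groups.

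Outside both lists, 4 other genes of the S phase ranked high by unadjusted p, and they were picked after their values were seen. Dscc1, which loads the sliding clamp for sister cohesion, ranked first of all 12193 genes. Its values were 0.331 in the sham library against 1.103 and 1.23 in the EP libraries of set 2, and 0.896, 0.789 and 0.513 in sham against 2.404 and 3.31 in EP in set 3, with a difference of 0.94 ± 0.17 (adjusted p = 0.422, limma). The checkpoint kinase Chek1 differed by 0.81 ± 0.17, the replication fork protein Tipin by 0.74 ± 0.16 and cyclin E2 (Ccne2) by 0.76 ± 0.19. Ccne2 was the 1 of 18 tested genes of the G1 list at p under 0.05, where the median was -0.15. Cyclin D1 (Ccnd1), the G1 cyclin, read 42.4 under sham and 32.1 and 27.4 under EP in set 2, then 48.99, 31.7 and 36.2 under sham and 61.3 and 43.4 under EP in set 3 and differed by 0.082 ± 0.31. The cell cycle inhibitor Cdkn1a, highest in mean of that list, differed by -2.11 ± 1.21. It was listed at 0 in EP mouse 327, as were all endothelial genes, and whether its difference follows the cell mixture was not tested.

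The upstream sequence of 3 of these genes is shown to let a reader see which cell cycle motifs they carry. They are the first 3 by p, among cell cycle genes with a sequence in the RefSeq table, that hold at least 1 match, and Tyms and Ndc80, with p as small or smaller, hold none. Both the motifs and this choice were made after the values were seen. The sequences are the 250 bases before the start in RefSeq (build GRCm38.p6), 5′ to 3′, with matches in capitals. The motifs searched on both strands were TTTGAA (the cell cycle homology region, bound by the repressor complex of resting cells), TTCCCGC or TTGGCGC (E2F sites) and CCAAT (bound by NF-Y).
Mcm5 (chr8:75109259-75109508, plus strand): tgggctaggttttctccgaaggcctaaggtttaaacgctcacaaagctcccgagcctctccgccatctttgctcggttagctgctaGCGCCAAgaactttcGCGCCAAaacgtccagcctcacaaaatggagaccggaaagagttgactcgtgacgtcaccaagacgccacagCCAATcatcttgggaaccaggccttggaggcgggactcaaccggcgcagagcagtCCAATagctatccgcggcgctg
Racgap1 (chr15:99651657-99651906, minus strand): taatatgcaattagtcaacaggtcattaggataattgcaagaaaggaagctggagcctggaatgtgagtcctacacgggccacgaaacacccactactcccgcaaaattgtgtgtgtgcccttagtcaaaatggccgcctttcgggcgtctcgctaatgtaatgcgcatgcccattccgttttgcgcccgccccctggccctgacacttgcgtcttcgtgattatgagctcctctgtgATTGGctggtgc
Top2a (chr11:99024190-99024439, minus strand): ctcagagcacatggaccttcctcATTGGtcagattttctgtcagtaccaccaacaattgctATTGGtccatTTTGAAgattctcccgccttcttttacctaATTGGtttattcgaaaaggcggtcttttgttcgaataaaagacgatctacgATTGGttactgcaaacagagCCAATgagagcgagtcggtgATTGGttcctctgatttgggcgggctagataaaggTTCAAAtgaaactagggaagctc
Mcm5 has 2 E2F and 2 CCAAT matches, Racgap1 has 1 CCAAT match, and Top2a has 2 matches to the homology region and 6 to CCAAT. The CCAAT letters were present in 20 of 30 replication promoters (66.7%) and 24 of 31 mitosis promoters (77.4%), against 34.5% of 27025 promoters of the same length. The E2F letters were in 10 of 30 replication promoters (33.3%), in 3 of 31 mitosis promoters (9.68%) and in 5.71% of all. Those of the homology region were in 13.3%, 29.0% and 16.3%. These promoters are of list members, tested or not, with a sequence in RefSeq, 61 in all, and 44 of them had their next 30 bases inside a GENCODE transcript of the gene. A match is a stretch of letters and was not tested as a site.

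Genes outside the cell cycle made up most of the 315 higher at p under 0.05, and the following were picked after their values were seen or belong to a list. Fkbp11, a prolyl isomerase of the endoplasmic reticulum, ranked second by p. Its values were 21.2 in the sham library against 49.3 and 79.1 in the EP libraries of set 2, and 22.9, 30.6 and 19.4 in sham against 52.6 and 43.4 in EP in set 3, a difference of 1.21 ± 0.24 (adjusted p = 0.422, limma) without overlap in either set. The 23 tested genes of protein folding in that compartment had a median of 0.07 and 0 at p under 0.05. The small nucleolar RNA host genes Gas5 and Snhg1 differed by 1.13 ± 0.26 and 1.36 ± 0.33. Gas5 read 7.67 under sham and 18.7 and 28.1 under EP in set 2, then 8.36, 8.11 and 4.19 under sham and 14.7 and 12.5 under EP in set 3. Of 22 ribosome biogenesis genes the median was 0.16 with 1 at p under 0.05 and higher, and Npm1, the highest in mean log2 value, differed by 0.51 ± 0.39. The serine synthesis enzyme Psat1 differed by 1.24 ± 0.40 and the mitochondrial folate enzyme Mthfd2 by 1.07 ± 0.47, 2 of 19 in their list, whose median was 0.11. In set 2 EP mouse 322 was the high library for both, with 30.5 for Psat1 against 5.66 in sham and 9.62 in EP mouse 306. The chromatin remodeler Hells differed by 0.86 ± 0.28, and Ezh2, the H3K27 methyltransferase, by 0.053 ± 0.38.

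Genes with lower values in EP libraries included several regulators of signalling, again without a call. Fam20c, a kinase of secreted proteins, differed by -1.04 ± 0.22 (adjusted p = 0.422, limma). It read 6.97 in the sham library against 6.23 and 3.57 in the EP libraries of set 2, and 9.18, 9.54 and 8.19 in sham against 3.17 and 2.37 in EP in set 3. The mRNA decay factors Zfp36l2 and Zfp36l1 differed by -0.84 ± 0.18 and -0.79 ± 0.20. Zfp36l2 read 53.4 under sham and 35.6 and 34.5 under EP in set 2, then 46.5, 64.96 and 68.5 under sham and 28.1 and 33.6 under EP in set 3, and neither set overlapped. Rela, the p65 subunit of NF-kB, read 101 in the sham library against 78.9 and 62.002 in the EP libraries of set 2, and 99.6, 99.1 and 126 in sham against 62.4 and 42.3 in EP in set 3, a difference of -0.86 ± 0.19 without overlap. It was the 1 of 15 tested RANK signalling genes at p under 0.05, and the inhibitor Nfkbia, the highest in mean log2 value of that list, differed by -0.86 ± 0.57. Stat3, a transcription factor of cytokine signalling, differed by -0.72 ± 0.22.

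In the TGF-beta and BMP list, 2 inhibitory Smads were at p under 0.05 and lower. Smad7, which blocks the TGF-beta receptor, read 17.9 in the sham library against 5.29 and 9.13 in the EP libraries of set 2, and 9.85, 9.27 and 11.1 in sham against 6.84 and 2.14 in EP in set 3. Its difference was -1.24 ± 0.31 (adjusted p = 0.569, limma), and the EP and sham libraries did not overlap in either set. Smad6, its counterpart for BMP receptors, differed by -1.105 ± 0.30. Of the 24 tested genes of this list 3 were lower and 0 higher at p under 0.05 (2.73% and 2.58% of all genes), with a median of -0.33. Follistatin (Fst), another inhibitor of the list, named here after its values were seen, had a difference of 1.85 ± 1.47, with overlap in both sets.

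Matrix genes and fibroblast genes were lower in several EP libraries, without a call. Adamts2, a procollagen protease, read 8.28 under sham and 2.76 and 2.45 under EP in set 2, then 2.79, 2.92 and 3.74 under sham and 0.0498 and 0.916 under EP in set 3, a difference of -1.52 ± 0.33. Prelp, a matrix proteoglycan, differed by -1.53 ± 0.37, and Gfra2, a receptor for neurturin, by -1.95 ± 0.46. Gsn (gelsolin) differed by -1.72 ± 0.44 and Col3a1 by -2.33 ± 0.96. Of 19 tested fibroblast markers 5 were lower and 0 higher at p under 0.05 (2.73% and 2.58% of all genes), with a median of -0.77. In EP mouse 327, 11 of 20 fibroblast markers were listed at 0. Their summed level was 940 in the sham library against 1180 and 512 in the EP libraries of set 2, and 942, 434 and 636 in sham against 177 and 214 in EP in set 3, so that the EP libraries were below every sham library in set 3 and on both sides of the sham library in set 2. The summed level of 9 Schwann markers was 212 in the sham library against 63.7 and 36.8 in the EP libraries of set 2, and 113, 70.6 and 71.04 in sham against 68.4 and 64.5 in EP in set 3. Sox10 and Erbb3, which mammary epithelium also expresses, made up most of that level in several libraries. Without them the level was 185 in sham and 47.1 and 18.3 in EP in set 2, and 65.2, 11.5 and 17.96 in sham and 22.7 and 0.469 in EP in set 3, where the groups overlapped. At p under 0.05, 2 of 7 tested Schwann markers were lower and 0 higher (2.73% and 2.58% of all genes), with a median of -0.43. In 0 of 7 did the EP libraries lie below the sham libraries in both sets (3.11% of all genes). The part of fibroblasts and Schwann cells in the differences of Adamts2, Prelp, Gfra2, Gsn and Col3a1 was not tested gene by gene; with the endothelial and basal covariate Adamts2 was at -1.61 and Gsn at -1.60.

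**Figure D4:**
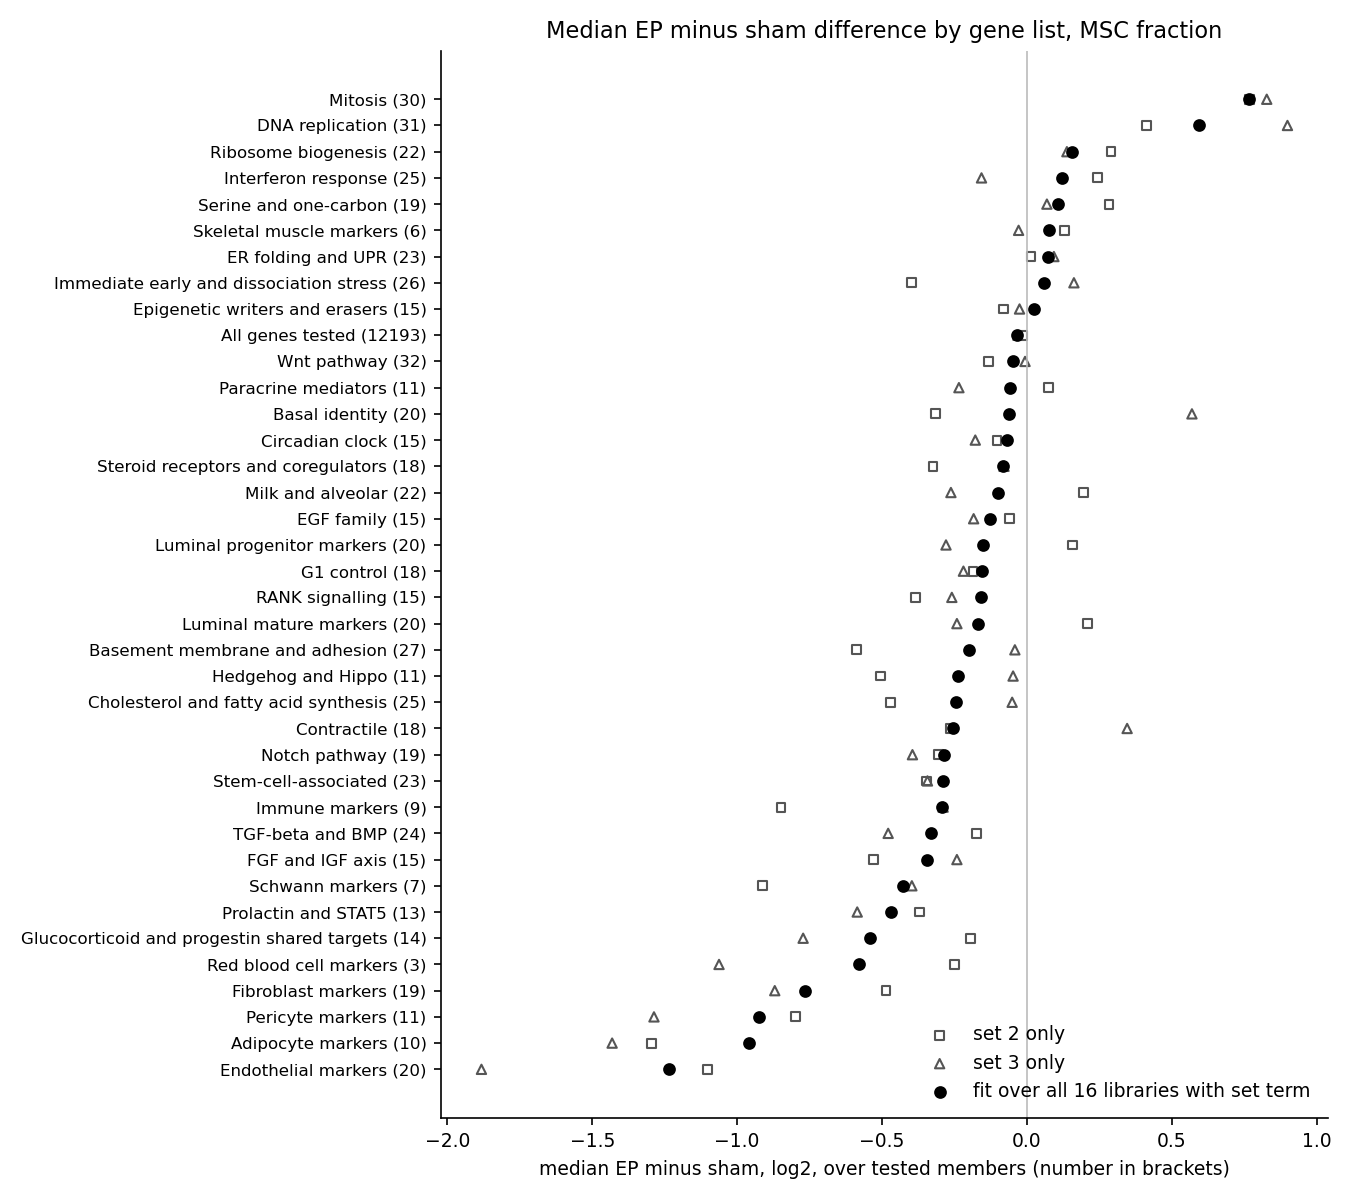
Median EP minus sham difference (x axis, log2) of the tested members of each gene list (y axis, number tested in brackets), from the fit with the set term (filled) and within set 2 (squares) and set 3 (triangles). Mitosis and DNA replication lie highest at 0.77 and 0.59, the endothelial list lowest at -1.24, and most lists near the -0.03 of all genes.

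Differences in the basal programme were within the spread between mice in the fit with the set term, and their direction changed with the fit. With the endothelial minus basal covariate, itself built from the basal list, 3 of 20 basal and 5 of 18 contractile genes were lower at p under 0.05. None was higher (5.24% and 3.17% of all genes), and the medians were -0.38 and -0.69. With library weights 7 basal genes were called higher and 1 lower (4.22% and 4.74% of all genes). The fit with the set term follows. Of 20 tested basal identity genes 0 were at p under 0.05 in either direction, and of 18 contractile genes 0 were higher and 1 lower, with medians of -0.06 and -0.25 that had opposite signs in the 2 sets (-0.32 and 0.57 for basal identity). Krt5 read 216 in the sham library against 32.2 and 248 in the EP libraries of set 2, and 30.5, 207 and 46.8 in sham against 42.7 and 165 in EP in set 3. Krt14 read 1304 under sham and 246 and 1851 under EP in set 2, then 368, 1181 and 916 under sham and 134 and 729 under EP in set 3, a difference of -2.17 ± 2.19, and both genes overlapped between the groups. Keratin 17 (Krt17) differed by -1.602 ± 1.905. For Krt14 and Krt17 the difference within each set was also below 0, but smaller in size than that of the fit. Acta2 was 894 in the sham library against 258 and 2291 in the EP libraries of set 2, and 0.4401, 1329.6 and 309.7 in sham against 135 and 1426 in EP in set 3, so the lowest level and one of the higher levels were both in sham mice. The difference was 0.98 ± 2.18 for Acta2, -0.34 ± 1.38 for smooth muscle myosin (Myh11) and -0.50 ± 0.62 for the oxytocin receptor (Oxtr), through which milk ejection is triggered. The basal transcription factors Trp63, Snai2 and Id4 differed by 1.05 ± 0.999, 0.22 ± 0.90 and 1.81 ± 1.23, and Nrg1, a ligand that basal cells send to luminal cells, by 1.1998 ± 0.91. Sparc, a matrix protein with the highest mean log2 value of the basal list, differed by -1.14 ± 0.80. With standard errors of this size, changes of several-fold in these genes would not have been detectable here: the 95% interval for Krt14 ran from -6.90 to 2.55.

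Genes linked to mammary stem cells were mixed. Lgr5, an R-spondin receptor of stem cells in several tissues, read 9.84 in the sham library against 1.06 and 3.26 in the EP libraries of set 2, and 2.98, 3.73 and 4.01 in sham against 1.45 and 1.95 in EP in set 3. The sham libraries were above the EP libraries in both sets, with a difference of -1.297 ± 0.47 (adjusted p = 0.859, limma). Sox9, a transcription factor of stem and progenitor cells, differed by -0.78 ± 0.33 (adjusted p = 0.928, limma), and read 43.4 under sham and 11.2 and 23.9 under EP in set 2, then 52.5, 65.8 and 75.8 under sham and 39.6 and 63.6 under EP in set 3, with overlap in set 3. Tspan8, a membrane protein of quiescent stem cells that luminal progenitors also carry, differed by -0.77 ± 0.24 (adjusted p = 0.826, limma). These were the 3 of 23 tested members at p under 0.05, all lower (beside 2.73% of all genes lower and 2.58% higher), and the median was -0.29. In 2 of 23 the EP libraries lay below the sham libraries in both sets (3.11% of all genes). Procr, the protein C receptor, is also an endothelial gene. It was listed at 0 in the 2 mice lowest in endothelial genes. Its values were 147 in the sham library against 161 and 53.4 in the EP libraries of set 2, and 124, 0 and 138 in sham against 147 and 0 in EP in set 3, with a difference of -0.50 ± 1.72 that turned to 0.47 with the endothelial and basal covariate. Lgr6 differed by 0.12 ± 0.84, and Cd24a, used to sort these cells, by -0.41 ± 0.29.

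The Wnt pathway was examined because Wnt4 and R-spondin 1 (Rspo1) are the signals from luminal cells that maintain basal stem cells. Of 32 tested genes 0 were higher and 2 lower at p under 0.05 (2.58% and 2.73% of all genes), with a median of -0.05. Those 2 were the secreted inhibitor Sfrp1, at -1.47 ± 0.60, and the secreted protein Dkk3, at -1.91 ± 0.84. Sfrp1 read 23.6 under sham and 4.08 and 8.105 under EP in set 2, then 8.42, 4.57 and 9.81 under sham and 2.096 and 3.58 under EP in set 3, with no overlap in either set. Axin2, a direct target of the pathway, differed by 0.46 ± 0.31 and the Wnt receptor Fzd7 by -0.30 ± 0.60. Axin2 read 0.355 in the sham library against 0.383 and 2.33 in the EP libraries of set 2, and 0.0424, 1.39 and 0 in sham against 0.3601 and 1.29 in EP in set 3. Rspo1 was at -0.0597 ± 0.18 and Wnt4 at -0.16 ± 0.20, and the sign of Rspo1 changed to positive without rescaling.

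Hormone receptors and the factors made by luminal cells did not differ beyond their spread in this fraction. The progesterone receptor (Pgr) read 0.3496 in the sham library against 0.321 and 1.08 in the EP libraries of set 2, and 1.19, 1.997 and 1.24 in sham against 1.81 and 1.83 in EP in set 3, and differed by 0.18 ± 0.19. The estrogen receptor (Esr1) was at -0.27 ± 0.26. Tnfsf11 read 2.29 under sham and 1.45 and 1.13 under EP in set 2, then 11.3, 2.48 and 2.59 under sham and 4.15 and 2.38 under EP in set 3, and differed by -0.38 ± 0.40. Its receptor Tnfrsf11a was at -0.051 ± 0.51, positive without rescaling, and the decoy receptor Tnfrsf11b at 0.67 ± 0.38. Areg was at 0.47 ± 0.36 and its receptor Egfr at -0.40 ± 0.38. The EGF receptor inhibitor Errfi1 differed by -1.04 ± 0.43 (adjusted p = 0.92, limma). Of 15 EGF family genes 0 were higher and 2 lower at p under 0.05 (2.58% and 2.73% of all genes). Fkbp5, a target shared by the progesterone and glucocorticoid receptors, differed by -0.99 ± 0.79. It read 10.7 in the sham library against 7.09 and 3.21 in the EP libraries of set 2, and 21.4, 2.32 and 17.3 in sham against 13.5 and 0.715 in EP in set 3, low in the same mice as the endothelial genes (sham 326, EP 322 and EP 327). Fkbp5 was counted in the list of steroid receptors and coregulators. In a separate list of other targets shared by both receptors, 0 of 14 had a difference above 0, against 45.4% of all genes. The median of that list was -0.54 (-0.19 in set 2 and -0.77 in set 3), with 1 lower and 0 higher at p under 0.05. In 0 of 14 did the EP libraries lie below the sham libraries in both sets (3.11% of all genes). The growth factor binding protein Igfbp5 was at -0.34 ± 0.34 and Igfbp7, which was listed at 0 in EP mouse 327, at -2.85 ± 1.63. The milk and alveolar list had a median of -0.10 with 0 of 22 at p under 0.05, and its member with the highest mean log2 value, Mfge8, which coats milk fat globules, was at -0.39 ± 0.33.

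Luminal markers were checked as other cells that the sort could hold. The luminal mature list had 0 of 20 and the luminal progenitor list 0 higher and 1 lower of 20 at p under 0.05 (Tspan8 again), with medians of -0.17 and -0.15. Keratins 8 and 18 (Krt8, Krt18) were at -0.24 ± 0.27 and -0.19 ± 0.25. In set 2 the summed luminal progenitor level was 2699 in sham mouse 305 and 2455 and 3114 in EP mice 306 and 322. In set 3 it was 10925, 10392 and 11059 in sham and 9641 and 8482 in EP libraries, so both EP libraries were below all 3 sham libraries there. Summed adipocyte genes were at 2334 in sham and 5014 and 153 in EP in set 2, and at 949, 42.6 and 1474 in sham and 1019 and 15.5 in EP in set 3. Summed pericyte genes were at 175 in sham and 262 and 46.3 in EP in set 2, and at 110.2, 17.6 and 179 in sham and 48.8 and 2.91 in EP in set 3. Summed immune genes were at 335 in sham and 78.5 and 102 in EP in set 2, and at 392.1, 93.3 and 102.1 in sham and 160.4 and 65.3 in EP in set 3. All 3 sums overlapped between the groups in set 3, and in set 2 only the immune sum was lower in both EP libraries. The 20 endothelial genes had a median of -1.24, with 0 at p under 0.05. Without EP mouse 327 that median was 0.27, and the median of the fibroblast list was -0.50.

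Whether the response differed from that of luminal progenitors could be tested only in set 2, with 1 sham and 2 EP libraries of MSC beside 4 sham and 4 EP libraries of LP. The spread of MSC sham mice is there assumed to be like that of the other groups, most of whose libraries are LP. Some markers went against this. Krt5 ran from 32.2 to 560 in the 6 MSC and from 8.44 to 10.7 in the 16 LP libraries, over all treatments. Pecam1 ran from 45.03 to 329 against 24.8 to 85.2, while Krt8 had the wider range in LP (313 to 919 against 791 to 3450). For a gene that varies more in MSC than in LP, the adjusted p is too small. Of 12248 genes, the EP minus sham difference was higher in MSC for 76 (0.621%) and lower for 145 (1.18%) at an adjusted p under 0.05 (limma, Benjamini-Hochberg adjustment). The replicate block for libraries from the same mouse gave 100 and 185, values as deposited 47 and 463, and leaving out 1 library from 44 to 460 and from 94 to 784.

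In 16 of 69 cell cycle genes the EP effect was smaller in MSC than in LP, with 1 MSC sham library whose spread is assumed. Of the 69 tested in set 2, 66 rose with EP in LP (beside 11.7% of all genes), with a median of 1.76, and the MSC median was 0.49 over the same genes. The difference had a median of -1.16, the 16 genes that passed were all lower in MSC, and 0 were higher, beside 1.18% and 0.621% of all genes. For Uhrf1, which carries DNA methylation through replication, the values were 2.21 in the MSC sham library and 3.18 and 2.65 in the MSC EP libraries, with LP sham libraries from 0.981 to 1.24 and LP EP libraries from 9.202 to 19.7. The difference was -2.598 ± 0.35 (adjusted p = 0.000688, limma). Mcm2 had 4.35 in the MSC sham library and 5.7999 and 6.74 in the MSC EP libraries, with LP sham libraries from 3.95 to 5.02 and LP EP libraries from 19.1 to 32.8, a difference of -1.82 ± 0.28 (adjusted p = 0.00213, limma). Both genes were higher in the MSC EP libraries than in the MSC sham library, by less than in LP. For Ccna2 and Top2a the differences of -1.29 ± 0.39 and -1.19 ± 0.39 did not pass (adjusted p = 0.116 and 0.138, limma). Values near the offset shared by the libraries of a set understate folds, by an amount that depends on the level.

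**Figure D5:**
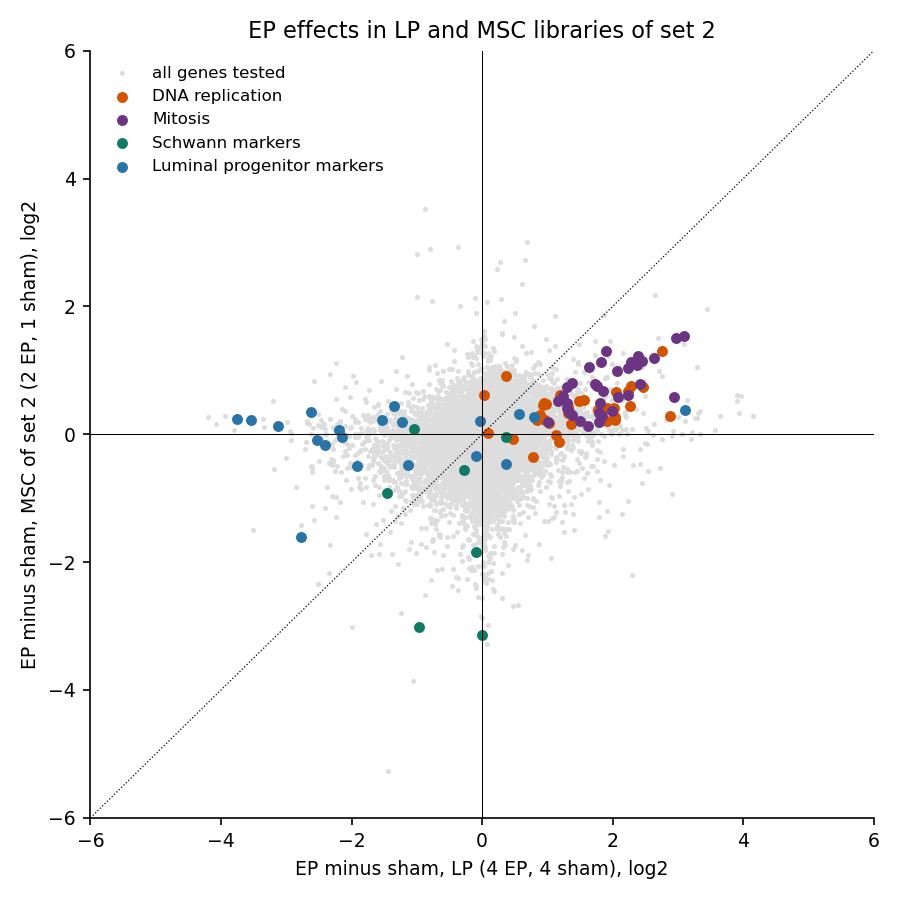
EP minus sham difference (log2) in LP (x axis, 4 EP against 4 sham libraries) and in MSC of set 2 (y axis, 2 EP against 1 sham library) for each gene, with 4 gene lists in colour and the line of equal differences dotted. Cell cycle genes lie to the right of 0 in LP, with median differences of 1.76 in LP and 0.49 in MSC. Luminal progenitor markers have medians of -1.73 in LP and 0.16 in MSC, and Schwann markers of -0.28 in LP and -0.91 in MSC. All MSC differences rest on 1 sham library.

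Of the 76 genes whose difference was higher in MSC, 75 had passed in LP and were lower there with EP, beside 12.0% of all genes. The 76 were chosen by a contrast that contains the LP difference, so nothing is read from that count. The 5 with the smallest p were Fam25c, 1810010H24Rik, Anxa8, Gramd3 and Lrrc26. Anxa8, a membrane-binding annexin, had 4.35 in the MSC sham library and 5.08 and 4.56 in the MSC EP libraries, with LP sham libraries from 56.1 to 80.7 and LP EP libraries from 3.77 to 11.95. Its values in all 3 MSC libraries lay within the range of the LP EP libraries, and the difference was 3.46 ± 0.49 (adjusted p = 0.00104, limma). Fam25c differed by 2.53 ± 0.31, 1810010H24Rik by 2.41 ± 0.30, Gramd3 by 1.92 ± 0.29 and Lrrc26 by 2.36 ± 0.36. All 5 fell in LP, and in MSC of the set they differed by -0.02 to 0.32.

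Of the 145 genes whose difference was lower in MSC, 73 had passed in LP and were higher there with EP, beside 11.7% of all genes. In 83 of 145 the single MSC sham library, from mouse 305, lay above both MSC EP libraries and above every LP sham and LP EP library, which held for 10.4% of all genes. The 145 were chosen by a contrast that uses this library and contains the LP difference, so nothing is read from either count. Prx, Cldn19 and Mag, genes of the myelin of Schwann cells, and Brinp3 were among those with the smallest p, and all 4 were of that kind. Prx, the scaffold protein periaxin, had 12.8 in the MSC sham library and 1.23 and 0.641 in the MSC EP libraries, with LP sham libraries from 0.261 to 0.438 and LP EP libraries from 0.246 to 0.399, a difference of -2.83 ± 0.26 (adjusted p = 1.75e-05, limma). Cldn19 differed by -2.56 ± 0.24, Mag by -1.99 ± 0.20 and Brinp3 by -1.71 ± 0.19. Mouse 305 was the only MSC sham library of the set, with a summed Schwann level of 212 against 63.7 and 36.8 in the EP libraries, and the part of Schwann cells in these differences was not tested. In set 3 Prx was 3.74, 1.06 and 0 in sham and 1.49 and 0 in EP libraries, so its groups overlapped there. Fam20c, one of the genes lowest by p in the comparison above, differed by -2.897 ± 0.50 (adjusted p = 0.00561, limma), at 6.97 in the MSC sham library and 6.23 and 3.57 in the MSC EP libraries, with LP sham libraries from 1.303 to 1.71 and LP EP libraries from 5.83 to 19.7. It rose with EP in LP and was lower in both MSC EP libraries than in the MSC sham library.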

How the data were processed

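RNA of sorted mammary cells was sequenced as low-input polyadenylated libraries, per the labels' protocols. The submitters' processing notes name STAR, Cufflinks, DESeq2 and mm9 with no versions. The deposited table is on an FPKM scale: the authors' file holds FPKM values that are not whole and were adjusted by gene within sets of libraries, and no label describes that step. The sets were read from the values: MSC libraries of 1 set share at least 1382 identical positive values, those of different sets 0. No read counts are kept, so the depth per library is unknown.

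Of 22007 genes, 27 with date-like symbols were left out and 21410 matched a current mouse symbol. Values were rescaled within a set by median-ratio factors (0.765 to 1.32 in the 8 libraries), applied above the gene's lowest shared value, and log2(value + 1) was fitted with limma 3.58.1 (trend and robust, R 4.3.3; Python 3.11.15 for tables and plots). Genes needed a value of 1 or more in at least 3 libraries and 3 libraries above the shared lowest value. The treatment and the set were terms. Fold changes are on the log2(value + 1) scale, which understates those of low genes. The fits were tested on simulated data with independent noise for each gene. That test could not cover variation shared between genes, such as that of the cell mixture.

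The rule for named genes took genes past the threshold (none), the members of a list with the highest mean log2 value where none passed, a fixed list of 30 genes, and the 5 genes in each direction with the smallest p in the comparison with LP. Some genes that the rule names are not reported here. The members and lists were chosen with earlier results of these data known. The genes leading by unadjusted p, the joining of both cell cycle lists, the count of libraries that do not overlap, the recount without a filter, the motifs, the split of the Schwann list, the choice among abundant list members, the 4 covariates for cell mixture, the weights without mouse 310 or 311 and the fit without mice 326 and 327 were chosen after seeing the values. Alternatives were other rescaling, pseudocounts, filters, set handling, library weights, covariates, and leaving out each library. Within set 2 the mouse number in the labels pairs LP and MSC libraries of the same animal, and the consensus correlation of such libraries was 0.133.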

Additional observations from a re-analysis of the deposited data

Results flagged for a closer look

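Dixon's test was run on 260 groups of 4 libraries, each a gene or list under EP or sham, adjusted for the set. The groups share libraries, so they are not separate tests. At the 95% critical ratio of the test, 13 groups had 1 library apart, about the share of 1 in 20 that chance gives. Sham mouse 326 was the library apart in 10 of them: Ccna2 (0.966), Mcm6 (0.89), Procr (0.871), Axin2 (0.832), Cdh5 (0.868), Kdr (0.929), and the means of the stem-cell-associated (0.904), Notch (0.858), endothelial (0.870) and adipocyte (0.873) lists. Sham mouse 334 was apart in Pold1 (0.833), EP mouse 306 in Nrg1 (0.913), and EP mouse 327 in the mean of the FGF and IGF list (0.890). Ccna2 and Mcm6 were higher in sham mouse 326 than in the other sham mice of its set, and still below both EP mice of that set.

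The EP minus sham difference of MSC differed from that of LP in set 2 (limma, log2) for Fam25c by 2.53, 1810010H24Rik by 2.41, Anxa8 by 3.46, Gramd3 by 1.92 and Lrrc26 by 2.36. It was lower in MSC for Prx (-2.83), Cldn19 (-2.56), Mag (-1.99), Brinp3 (-1.71), Mcm2 (-1.82), Uhrf1 (-2.60), Fam20c (-2.90), Adamts2 (-1.85) and Gfra2 (-1.98). Each rests on 1 MSC sham library.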

How the results depend on the processing

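No gene was called under values as deposited, quantile normalization, pseudocounts of 0.1 and 5, the stricter filter, no set term, the 8 libraries alone, set 3 alone or any of the 4 covariates (smallest adjusted p 0.139 to 0.225 for these), and 0 to 0 higher and 0 to 1 lower when 1 library was left out (Prnd, without EP mouse 306). Without the filter 1 was higher (Tagln3), and with library weights 515 were higher and 578 lower (2111 and 2223 without mouse 311, 0 and 0 without mouse 310). The 38 cell cycle genes at an unadjusted p under 0.05 became 12 under the stricter filter, 19 with no set term and 22 to 44 with 1 library left out. The stricter filter tested fewer cell cycle genes. In the comparison with LP, the 76 higher and 145 lower genes became 47 and 463 with values as deposited, 44 to 460 and 94 to 784 with 1 library left out, and 100 and 185 with the replicate block for mice, which changed no count by over 1.5 times. Log2 differences of named genes changed sign as follows, none of them called in the fit with the set term. With values as deposited: Rspo1 0.052, Tnfrsf11a 0.059. With quantile normalization: Rspo1 0.077, Tnfrsf11a 0.024. With a pseudocount of 0.1: Lgr6 -0.23. With no set term: Lgr6 -0.18, Areg -0.11, Myh11 0.32, Ccnd1 -0.0054, Cdt1 -0.013, Dnmt1 -0.10. In set 3 alone: Fzd7 0.55, Tnfrsf11a 0.31, Egfr 0.14, Krt5 0.32, Myh11 0.36, Oxtr 0.47, Ezh2 -0.025, Pcna -0.29. With library weights: Procr 0.041, Fzd7 0.035, Tnfrsf11a 0.21, Wnt4 0.11, Krt5 0.32, Myh11 0.46, Cdt1 -0.0078. With the endothelial minus basal covariate: Procr 0.47, Lgr6 -0.29, Tnfrsf11a 0.18, Snai2 -0.22, Acta2 -0.055, Ezh2 -0.057, Kdr 0.071, Cdt1 -0.016. With the endothelial covariate: Procr 0.94, Lgr6 -0.44, Tnfrsf11a 0.29, Snai2 -0.27, Acta2 -0.28, Ezh2 -0.04998, Cdh5 0.17, Kdr 0.43. With library weights and mouse 310 left out: Procr 0.42, Rspo1 0.023, Tnfsf11 0.039, Tnfrsf11a 0.37, Wnt4 0.17, Krt5 0.17, Krt8 0.0077, Krt18 0.043. With library weights and mouse 311 left out: Rspo1 0.16, Wnt4 0.13, Myh11 0.24, Igfbp5 0.13, Ccnd1 -0.47, Krt8 0.096, Mcm4 -0.0011, Dnmt1 -0.049, Pold1 -0.24. With mice 326 and 327 left out: Wnt4 0.016, Ccnd1 -0.021, Dnmt1 -0.0033. With 1 library left out at a time the ranges were Acta2 -0.85 to 2.27, Ccnd1 -0.11 to 0.27, Cdh5 -2.06 to 0.24, Cdt1 -0.057 to 0.19, Dnmt1 -0.022 to 0.093, Ezh2 -0.15 to 0.27, Fzd7 -0.99 to 0.24, Kdr -2.02 to 0.62, Krt5 -1.98 to 0.089, Lgr6 -0.50 to 1.04, Myh11 -1.46 to 0.32, Pcna -0.15 to 0.39, Pecam1 -2.74 to 0.39, Pold1 -0.094 to 0.27, Procr -2.11 to 1.43, Snai2 -0.36 to 0.81, Tnfrsf11a -0.47 to 0.25. The cause of these changes was not tested. The depth is unknown, and the mouse-to-mouse spread in other cell types and the offset by gene limit what 4 libraries a group can show.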

Other observations

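Other pathways held few genes at an unadjusted p under 0.05 and none that passed adjustment (limma). Of 25 tested genes of cholesterol and fatty acid synthesis, 3 were lower at that level in EP libraries and 0 higher, with a median log2 difference of -0.25. Among them were the squalene synthase Fdft1 (-0.43) and Srebf2 (-0.54), a transcription factor for sterol genes. Of 13 genes of prolactin and STAT5 signalling, 2 were lower and 0 higher, with a median of -0.47: Cish (-0.74), an inhibitor of cytokine signalling, and Stat3. Of 27 genes of basement membrane and adhesion, 2 were lower, Lamb2 (-0.84), a laminin chain, and Itga9 (-0.94), an integrin chain. Notch pathway genes (0 of 19), steroid receptors and coregulators (0 of 18) and circadian clock genes (0 of 15) had none. Over all genes tested 2.58% were higher and 2.73% lower at that level.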
